A study of Saccharomyces cerevisiae with 12 samples.

Results

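The genes described here encode proteins of the mitochondrial ribosome of the yeast Saccharomyces cerevisiae. They were chosen by name, as the genes whose annotated symbol is MRPL, MRPS, RSM or MRP followed by a number, with MRP8 left out. This gave 65 of the 5449 yeast genes measured, 37 of the large subunit and 28 of the small subunit. By the ribosomal protein names that RefSeq lists, 40 of them have a homologue in bacteria and 24 belong only to mitochondrial ribosomes. RSM22, which resembles methyltransferases, has no such name. Each member was measured by 1 probe set of its own, and all 65 lay above background on all 12 arrays, so no filter removed any of them.

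The study followed EC1118, a commercial wine yeast, during the making of sparkling wine, in which a finished base wine is fermented once more inside closed bottles. Cells that had first been adapted to ethanol in a medium with base wine went into base wine with 20 g/L of sucrose, and 350 mL bottles stood still, at 16 °C, over some 40 days. The 3 bottle groups are day 7, with an ethanol gain of 0.26%, day 15, with a gain of 0.89%, and day 19, with a gain of 1.27%, and the labels describe their samples as coming from independent bottling assays. The reference was the same strain growing exponentially in YPD, a rich glucose medium, at 28 °C to an optical density of 1.0, and it had not been adapted to ethanol. Each group holds 3 arrays, which sets the precision of what follows. Reference and bottles differ at once in medium, temperature, ethanol, prior adaptation and growth phase, and these cannot be told apart. The labels do not say whether the reference replicates were separate cultures, so the spread among them may be technical.

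Mitochondria make a small set of proteins themselves, most of them core subunits of the respiratory chain and of the ATP synthase, and they do so on ribosomes of their own. The ribosomal RNAs and the protein Var1 of these ribosomes come from the mitochondrial genome, while all other ribosomal proteins are encoded in the nucleus, made in the cytosol and imported. In yeast, many of the nuclear messages for this ribosome are bound by Puf3, an RNA-binding protein that acts on the decay and translation of messages for mitochondrial proteins. VAR1 was not analysed here.

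The values are log2 expression values, normalized between arrays by the authors, so they give the level of a transcript relative to others on the array and not its amount per cell. Replicates correlated across all genes at 0.987 to 0.997 in the reference, and at 0.892 to 0.966, 0.917 to 0.979 and 0.817 to 0.939 on days 7, 15 and 19. Day 7 replicate 1 and day 19 replicate 1 stood apart from the other 7 bottle arrays on the second principal component. The 17 control probe sets for ribosomal RNA averaged 6.40 ± 1.34 (SD, n = 3) in the reference and 12.20 ± 1.02, 12.37 ± 0.52 and 12.28 ± 0.79 on the 3 days. The difference between 3' and 5' probe sets of control genes, a measure of RNA integrity, was 0.61 in the reference and 1.13, 1.05 and 1.05 in the bottles. Both measures separate the reference from the bottles as the conditions do, and their part in the results was not tested.

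Relative to the reference, a minority of the mitochondrial ribosomal protein genes was higher in the bottles, nearly none was lower, and the shifts were small. At day 7, 11 of the 65 genes rose and 0 fell, where 19.7% of all genes tested were called higher and 17.1% lower. At day 15, 19 rose and 0 fell, against 21.4% and 23.5% of all genes. At day 19, 9 rose and 1 fell, against 22.7% and 20.8%. The members called higher were thus 16.9%, 29.2% and 13.8% of the 65, below the share among all genes at days 7 and 19 and above it at day 15. The members called lower were 0.0%, 0.0% and 1.54%. The differences from the shares of all genes were not tested. A gene was called at an adjusted p under 0.05 in limma's fit of all 12 arrays, with Benjamini-Hochberg adjustment over all 5449 genes within each comparison.

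Most members had a positive difference, called or not. Day 7 minus reference was above 0 for 83.1% of the members, day 15 for 93.8% and day 19 for 67.7%, where 48.4%, 46.7% and 49.0% of all genes were above 0. The median log2 difference of the members was 0.28, 0.36 and 0.08 on the 3 days, beside -0.03, -0.08 and -0.03 over all genes. A change of at least 2-fold was seen for 4, 8 and 3 members, all of them called. At day 19 these were 2 rises and 1 fall, that of MRPL4. The share of all genes with such a change is not given here. The quartiles of the members were 0.04 and 0.57 at day 7, 0.17 and 0.66 at day 15 and -0.15 and 0.40 at day 19, where they lay on both sides of 0.

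**Figure D1:**
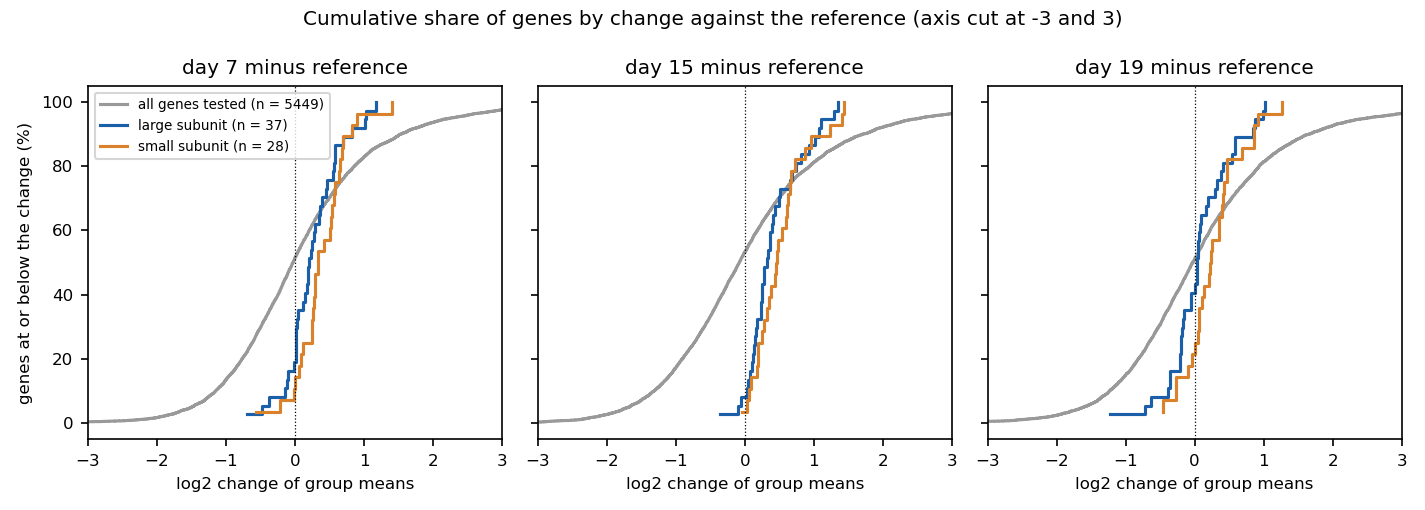
Cumulative share of genes (y axis, percent) at or below each log2 change of group means against the reference (x axis, cut at -3 and 3), for all 5449 genes, the 37 large-subunit and the 28 small-subunit genes. The curves of the members are steep and lie to the right of 0 for most genes at days 7 and 15, with medians of 0.28 and 0.36 over all members.

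The number of calls depended on single arrays, among all genes as well as among the members. At day 7 the 11 higher calls became 6, 6 and 7 without reference replicates 1, 2 and 3, where 14.1%, 13.5% and 15.5% of all genes were called higher. They became 7 and 6 without day 7 replicates 2 and 3, where 17.3% and 15.9% of all genes were. At day 15 the 19 became 12 without reference replicate 1 and 10 without day 15 replicate 3, where 16.6% and 16.1% of all genes were. At day 19 the 9 became 14 without day 19 replicate 1, where 23.9% of all genes were. Without day 19 replicate 3 there were 2 lower calls at day 19 and 1 at day 7, where 16.9% and 18.4% of all genes were called lower. Without both arrays that stood apart, 20, 24 and 17 members were higher, where 23.5%, 28.0% and 27.5% of all genes were. With limma's array weights, which gave reference replicate 2 a weight of 14.1 and day 19 replicate 1 a weight of 0.123, 31, 53 and 16 members were higher, where 32.8%, 38.8% and 30.9% of all genes were, but the estimate of these weights stopped before it had converged.

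The arrays of the bottles and of the reference did not overlap for part of the members. All 3 arrays of day 7 lay above all 3 of the reference for 26 members and below for 2, where this held for 30.8% and 33.0% of all genes. At day 15 it was 28 above and 0 below (33.0% and 37.8% of all genes), and at day 19 it was 16 above and 4 below (28.9% and 30.6%). All 9 bottle arrays lay above all 3 reference arrays for 15 members, and below for 0, where this held for 20.9% and 24.0% of all genes. The 4 members below at day 19 were MRPL4, MRPL15, MRPS35 and MRPS9, and only MRPL4 among them passed the test.

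Read array by array, the typical member stood at different levels within each day. Median differences from the reference mean were 0.04, 0.42 and 0.41 for day 7 replicates 1 to 3, 0.26, 0.31 and 0.63 for those of day 15, and 0.07, 0.05 and 0.27 for those of day 19. Members above their reference mean numbered 38, 61 and 58 at day 7, 54, 49 and 65 at day 15, and 35, 37 and 50 at day 19. Day 15 replicate 3 was the array with all 65 members above, and day 7 replicate 1 lay well below the other arrays of its day. The reference arrays also differed, with medians of -0.14, -0.01 and 0.16 and with 10, 28 and 54 members above the mean. The median SD of a member among the reference arrays was 0.174, against 0.118 over all genes, while in the bottles it was 0.286, 0.247 and 0.281, against 0.321, 0.295 and 0.428.

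**Figure D2:**
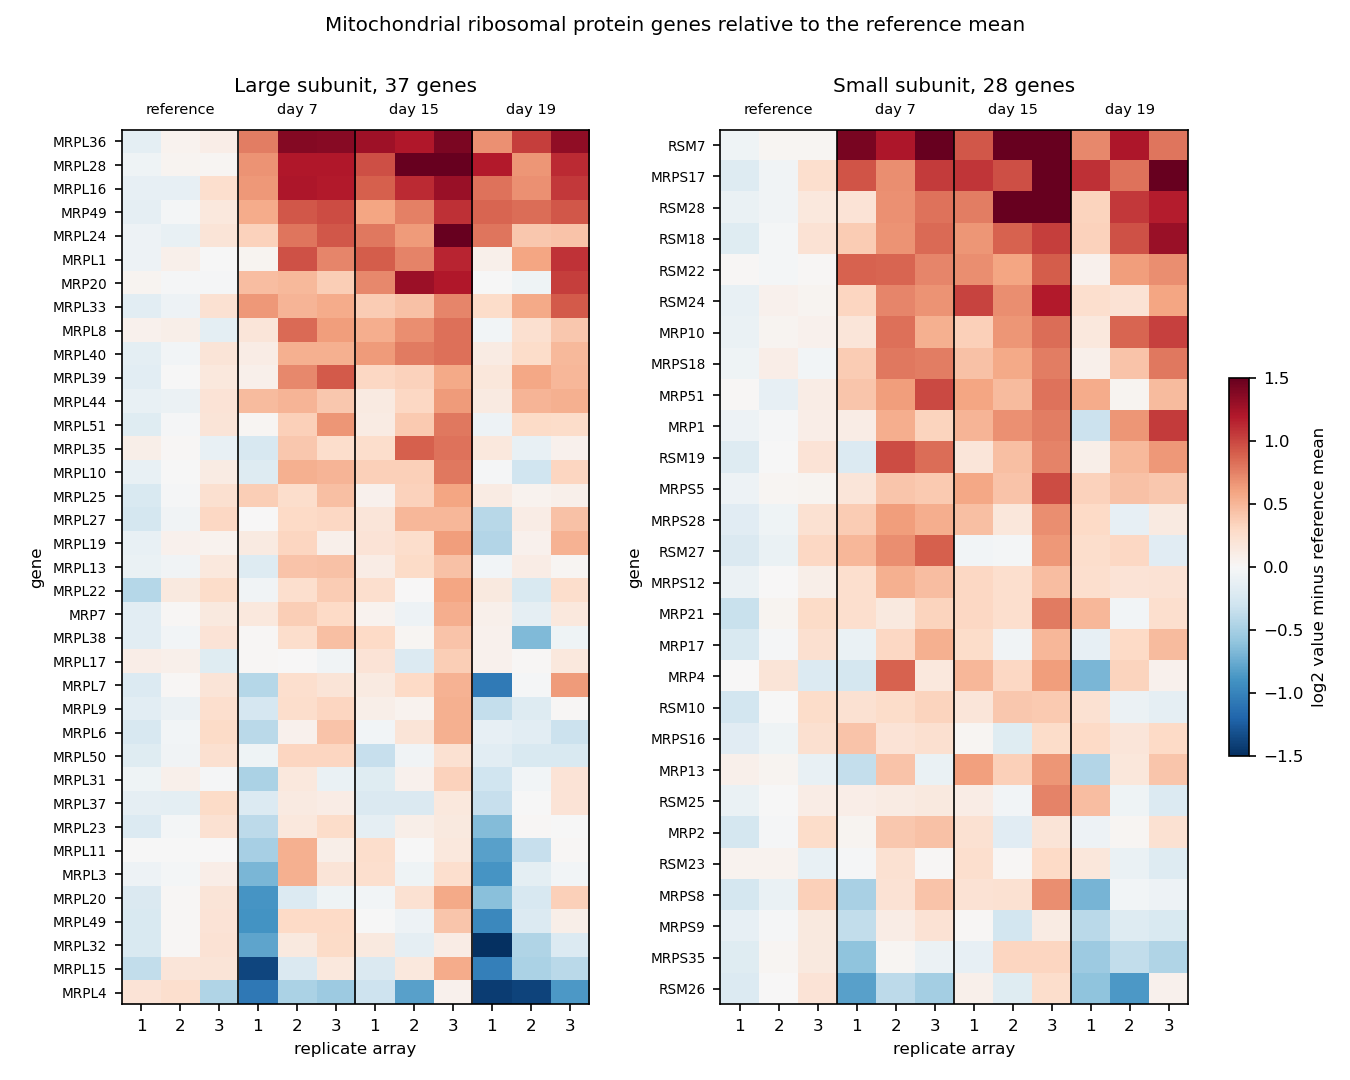
Log2 value minus the gene's reference mean (colour, from -1.5 in blue to 1.5 in red, values beyond it at the end colour) for each member (rows, ordered within a subunit by the mean over the 9 bottle arrays) on each of the 12 arrays (columns, 3 replicates per group). Red rows at the top hold the members called on all 3 days, day 15 replicate 3 is red for all 65 members, and MRPL4 at the bottom of the large subunit is blue on all 3 arrays of days 7 and 19.

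In all, 6 members were called higher on all 3 days, 4 of the large subunit and 2 of the small subunit. They were MRPL36, MRPL28, MRPL16, MRP49, RSM7 and MRPS17, and 15.0% of all genes were called higher on all 3 days. Another 6 members were called higher on exactly 2 days and 9 on exactly 1, as were 5.85% and 7.19% of all genes. No call in either direction was made for 43 members, and for 42.9% of all genes. The comparisons share the reference arrays, and 10 members were called higher at both day 7 and day 15 and 8 at both day 15 and day 19, as were 16.4% and 17.7% of all genes. Day 15 alone held 7 of the 9 single calls, where 2.24% of all genes were called higher at day 15 alone.

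MRPL36, the bL31 protein of the large subunit, stood at 10.75, 10.95 and 10.99 in the reference. Its values were 11.67, 12.27 and 12.26 at day 7, 12.17, 12.10 and 12.31 at day 15, and 11.58, 11.93 and 12.23 at day 19. All 9 bottle arrays lay above all reference arrays, and the replicates of day 15 lay closest together. MRPL36 rose by 1.17 ± 0.23 on the log2 scale (SE; 2.25-fold) at day 7, by 1.29 ± 0.23 (2.45-fold) at day 15 and by 1.02 ± 0.23 (2.02-fold) at day 19. Adjusted p-values were 0.00293, 0.00129 and 0.00497. In yeast, Mrpl36 is known to link translation to the assembly of the proteins made.

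MRPL28 encodes mL40, a protein that bacterial ribosomes lack. It read 10.11, 10.22 and 10.21 in the reference, 10.85, 11.38 and 11.38 at day 7, 11.14, 11.70 and 11.76 at day 15, and 11.36, 10.84 and 11.30 at day 19. Reference and bottles did not overlap, although 1 array of each bottle group lay well below its other 2. MRPL28 rose by 1.03 ± 0.24 (adjusted p = 0.00709), 1.35 ± 0.24 (adjusted p = 0.00128) and 0.99 ± 0.24 (adjusted p = 0.00708) on the 3 days.

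MRPL16, the uL16 protein, sits near the peptidyl transferase centre. Its reference values of 10.36, 10.36 and 10.73 compare with 11.14, 11.69 and 11.67 at day 7, 11.38, 11.60 and 11.78 at day 15, and 11.29, 11.17 and 11.55 at day 19. Again no bottle array reached down to the reference. The changes were 1.02 ± 0.22 (2.02-fold, adjusted p = 0.00512), 1.10 ± 0.22 (2.14-fold, adjusted p = 0.00259) and 0.85 ± 0.22 (1.80-fold, adjusted p = 0.0105).

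MRP49, or mL61, had 10.57, 10.68 and 10.87 in the reference and 11.58, 11.54 and 11.63 at day 19, its tightest group. At day 7 it had 11.27, 11.64 and 11.68, and at day 15 it had 11.30, 11.46 and 11.80. The 3 bottle means of MRP49 lay within 0.1 of each other. Its changes of 0.82, 0.81 and 0.88, each ± 0.20, had adjusted p-values of 0.00867, 0.00708 and 0.00519.

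In the small subunit, RSM7 changed most at day 7 and day 15. Rsm7 is the uS7 protein of the head of the subunit. Its reference values of 10.79, 10.88 and 10.88 were close together. It read 12.27, 12.07 and 12.41 at day 7, 11.78, 12.66 and 12.43 at day 15, and 11.57, 12.06 and 11.66 at day 19. Every bottle array was above the reference, and all 3 arrays of day 19 lay below all 3 of day 7. RSM7 rose by 1.40 ± 0.24 (2.64-fold, adjusted p = 0.00145), 1.44 ± 0.24 (2.71-fold, adjusted p = 0.00104) and 0.91 ± 0.24 (1.88-fold, adjusted p = 0.0119).

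MRPS17, the uS17 protein, read 10.14, 10.28 and 10.58 in the reference and 11.27, 11.02 and 11.38 at day 7. It reached 11.41, 11.29 and 12.001 at day 15 and 11.43, 11.14 and 12.24 at day 19. Replicate 3 was the highest array of MRPS17 in each of the 4 groups. MRPS17 rose by 0.89 ± 0.30 at day 7 (adjusted p = 0.0352), 1.24 ± 0.30 at day 15 (adjusted p = 0.00628) and 1.27 ± 0.30 at day 19 (adjusted p = 0.00587), its day 19 change being the highest of any member. The day 7 call was lost under 6 of 24 alternatives, among them leaving out any 1 reference array, with an adjusted p of up to 0.117.

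RSM28, RSM18 and RSM22 were called on 2 days each. RSM28 encodes mS46, known in yeast from a suppressor of defects in the start of mitochondrial translation. It read 10.54, 10.59 and 10.80 in the reference, 10.85, 11.33 and 11.46 at day 7, 11.42, 12.45 and 12.29 at day 15, and 10.98, 11.70 and 11.82 at day 19. Replicate 1 was the lowest array in each bottle group. RSM28 rose at day 15 by 1.41 ± 0.31 (2.65-fold, adjusted p = 0.00433) and at day 19 by 0.86 ± 0.31 (adjusted p = 0.0438), and its day 7 difference was 0.57 ± 0.31 (adjusted p = 0.174). The day 19 call was lost under 10 of 24 alternatives, with an adjusted p of up to 0.135.

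RSM18, the bS18 protein, read 11.07, 11.22 and 11.46 in the reference, 11.92, 12.14 and 12.29 at day 15, and 11.60, 12.21 and 12.54 at day 19. All arrays of both days lay above the reference. It rose by 0.86 ± 0.26 (adjusted p = 0.0176) and 0.87 ± 0.26 (adjusted p = 0.0183), each call being lost under 4 of 24 alternatives, and its day 7 difference was 0.63 ± 0.26 (adjusted p = 0.0710). RSM22 had a very even reference of 8.78, 8.74 and 8.78. It read 9.65, 9.63 and 9.49 at day 7, 9.46, 9.35 and 9.68 at day 15, and 8.83, 9.39 and 9.46 at day 19. The lowest array of day 19 lay just above the reference. RSM22 rose by 0.83 ± 0.20 at day 7 (adjusted p = 0.00915) and by 0.73 ± 0.20 at day 15 (adjusted p = 0.0128, lost without day 15 replicate 3 at an adjusted p of 0.0570), and stood at 0.46 ± 0.20 at day 19 (adjusted p = 0.0839).

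**Figure D3:**
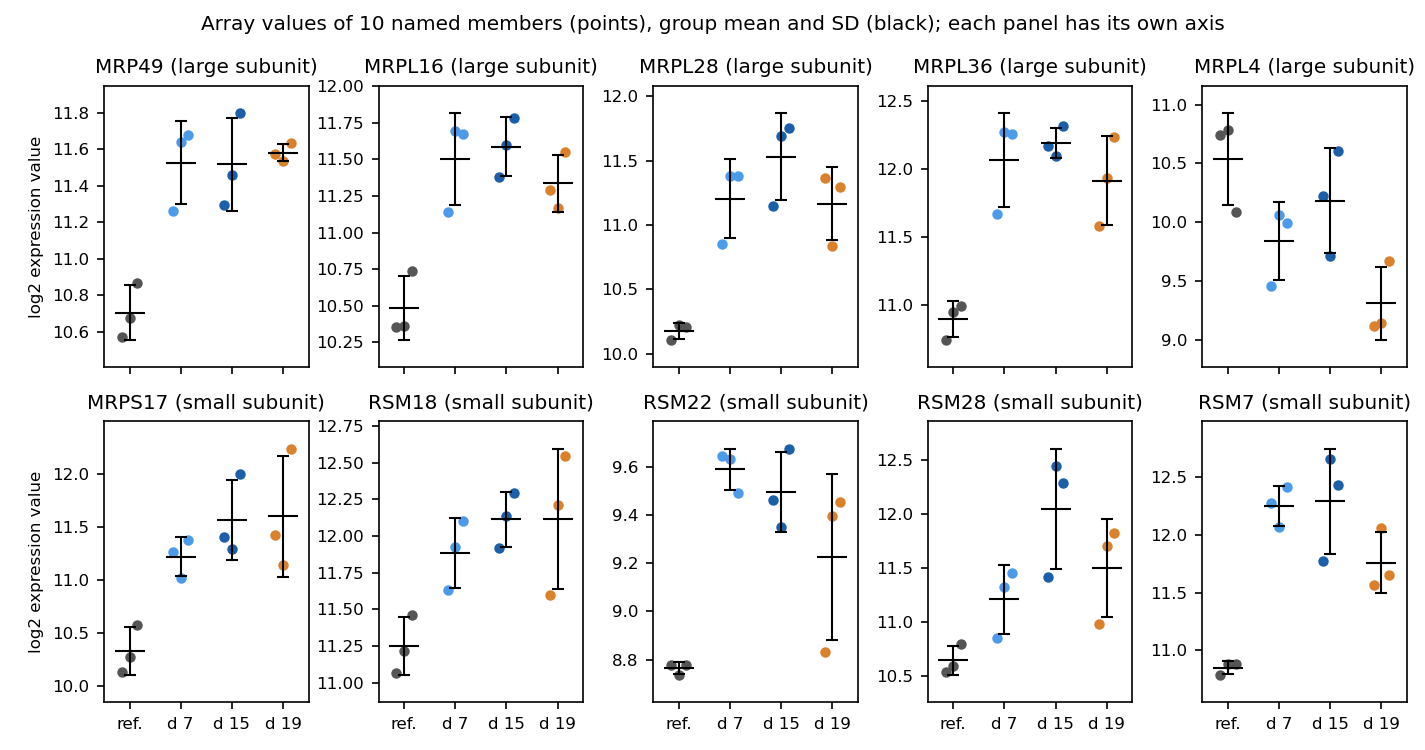
Log2 expression value (y axis, a separate scale in each panel) of 10 members on each array (points), with the group mean and SD (black, n = 3), in the reference (ref.) and at days 7, 15 and 19 (d 7, d 15, d 19). In 9 panels the bottle arrays lie above the reference arrays, and in the MRPL4 panel the arrays of day 19, at 9.12 to 9.67, lie below the reference.

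MRPL4 was the 1 member called lower. It encodes uL29, which sits beside the exit of the tunnel through which the new protein leaves the ribosome. MRPL4 read 10.74, 10.79 and 10.09 in the reference, 9.46, 10.07 and 10.00 at day 7, 10.23, 9.72 and 10.61 at day 15, and 9.12, 9.15 and 9.67 at day 19. Days 7 and 19 lay below the reference on every array, whereas day 15 overlapped with it. Reference replicate 3 was the low array of its group, and MRPL4 had the highest reference SD of all members, 0.388. MRPL4 fell by 1.22 ± 0.30 on the log2 scale at day 19 (2.34-fold lower, adjusted p = 0.00712) and held this call under all 24 alternatives. Its differences were -0.70 ± 0.30 at day 7 (adjusted p = 0.0844) and -0.35 ± 0.30 at day 15 (adjusted p = 0.346).

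The next 3 members also encode proteins at the tunnel or its exit. They and the further members named from here on were picked after their values were seen, and no difference between them and MRPL4 was tested. MRP20, or uL23, the neighbour of uL29 at the exit, read 10.17, 10.12 and 10.11 in the reference and 10.86, 11.42 and 11.34 at day 15. It rose at day 15 by 1.07 ± 0.28 (adjusted p = 0.00985). At day 19 it read 10.13, 10.07 and 11.17, so that 2 arrays were back at the reference level and 1 was not (0.32 ± 0.28, adjusted p = 0.372). MRPL40, or uL24, rose at day 15 by 0.75 ± 0.20 (adjusted p = 0.00992). MRPL22, or uL22, which lines the tunnel, passed in none of the comparisons with the reference.

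The remaining calls were mostly of day 15. RSM24, a small-subunit protein known as mS35, read 10.51, 10.70 and 10.67 in the reference and 11.63, 11.33 and 11.81 at day 15. It rose by 0.57 ± 0.21 at day 7 (adjusted p = 0.0465) and 0.96 ± 0.21 at day 15 (adjusted p = 0.00340). MRPL24, or bL28, went from 9.84, 9.80 and 10.11 to 10.71, 10.55 and 11.55 at day 15, a rise of 1.02 ± 0.28 (adjusted p = 0.0120) with 1 array well above the other 2. MRPL1, or uL1, rose at day 15 by 0.93 ± 0.29 (adjusted p = 0.0221). MRPL8, MRPL35 and MRPS5 rose at day 15 by 0.69, 0.66 and 0.66, and MRPS18 and MRP51 rose at both day 7, by 0.65 and 0.68, and day 15, by 0.59 and 0.63. RSM27 was called at day 7 alone, with a rise of 0.70 ± 0.25 (adjusted p = 0.0477), and MRPL33, or uL30, at day 19 alone, with a rise of 0.59 ± 0.21 (adjusted p = 0.0421).

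The members with no call ranged from -0.70 to 0.69 at day 7, from -0.35 to 0.66 at day 15 and from -0.72 to 0.69 at day 19. MRP10, or mS37, had the highest of these at day 19. It read 10.87, 11.01 and 11.03 in the reference and 11.13, 11.85 and 11.998 at day 19, a difference of 0.69 ± 0.26 (adjusted p = 0.0515), with all 9 bottle arrays above the reference. MRPL32, or bL32, had the lowest, with 10.96, 11.21 and 11.40 in the reference and 9.70, 10.74 and 10.98 at day 19, a difference of -0.72 ± 0.35 (adjusted p = 0.122). The last of its arrays overlapped with the reference. RSM26, or mS42, read 11.06, 11.27 and 11.47 in the reference and 10.45, 10.87 and 10.76 at day 7, where no array reached the reference (-0.57 ± 0.26, adjusted p = 0.0996), but 11.35, 11.09 and 11.53 at day 15 (0.06 ± 0.26). MRPL37, or mL54, stayed nearest to the reference, with no mean more than 0.10 from it on any of the 3 days.

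Calls came from both subunits. Of the 37 large-subunit genes, 4, 10 and 5 rose on the 3 days and 0, 0 and 1 fell, with median differences of 0.20, 0.32 and 0.04. That was 10.8%, 27.0% and 13.5% higher and 0.0%, 0.0% and 2.70% lower. Among all genes, 19.7%, 21.4% and 22.7% were called higher and 17.1%, 23.5% and 20.8% lower. Of the 28 small-subunit genes, 7, 9 and 4 rose and 0 fell, with medians of 0.33, 0.46 and 0.23. Small-subunit medians were the higher ones on each day, and the difference between the subunits was not tested. Of the 40 proteins with a bacterial homologue, 6, 13 and 6 were called higher (15.0%, 32.5% and 15.0%, medians 0.29, 0.40 and 0.15). Of the 24 found only in mitochondrial ribosomes, 4, 5 and 3 were (16.7%, 20.8% and 12.5%, medians 0.17, 0.31 and 0.06).

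Among the bottle times, most members had their highest mean at day 15, but no difference of a member between days passed the test. Day 15 had the highest of the 4 group means for 42 of the 65 members, day 7 for 16, day 19 for 5 and the reference for 2, where these shares of all genes were 18.4%, 17.7%, 22.1% and 41.8%. Day 15 minus day 7 was above 0 for 46 members, with a median of 0.13 (all genes -0.05). The single arrays did not all follow this order. Member medians against the reference mean were 0.26, 0.31 and 0.63 for day 15 replicates 1 to 3. For day 7 they were 0.04, 0.42 and 0.41, so day 7 replicates 2 and 3 lay above day 15 replicates 1 and 2. Day 19 minus day 15 was below 0 for 56 members, with a median of -0.27 (all genes 0.05). Day 19 minus day 7 was below 0 for 51 members, with a median of -0.16 (all genes -0.01).

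limma called 0 members between day 15 and day 7, between day 19 and day 15 and between day 19 and day 7, where 0.00%, 0.00% and 0.147% of all genes were called. The F-test over days 7, 15 and 19 together called 0 members, where 0.0367% of all genes were called. At an unadjusted p under 0.05 there were 4, 8 and 1 of the 65 members in the 3 comparisons and 5 in the F-test. Among all 5449 genes there were 572, 600 and 675 in the 3 comparisons and 687 in the F-test. The lowest adjusted p of a member was 0.428, 0.353, 0.393 and 0.367, in the same order. With array weights, 7 members were higher at day 15 than at day 7, 10 were lower at day 19 than at day 15 and 14 passed the F-test, where 10.9%, 5.32% and 33.5% of all genes did. At day 15 the arrays lay wholly above those of day 7 for 5 members and below for 0, where this held for 6.17% and 9.10% of all genes. At day 19 they lay wholly below those of day 15 for 12 members and above for 0 (4.88% and 7.80% of all genes). Against day 7, those of day 19 lay below for 6 and above for 1 (6.11% and 5.87%).

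Of the 12 members whose day 19 arrays lay wholly below day 15, RSM24 had the lowest p. It read 10.88, 10.84 and 11.21 at day 19 against 11.63, 11.33 and 11.81 at day 15, a difference of -0.61 ± 0.21 (adjusted p = 0.353). MRPL4 differed by -0.87 ± 0.30 (adjusted p = 0.363), MRPS35 by -0.63 ± 0.22 (adjusted p = 0.364) and MRPL35 by -0.62 ± 0.23 (adjusted p = 0.388). RSM28 had the lowest p between day 15 and day 7, with 0.84 ± 0.31 (adjusted p = 0.428).

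Within days the members varied together from array to array. After each day's mean was taken away from each gene, the median correlation between pairs of members over the 9 bottle arrays was 0.54, and 89.0% of pairs were positive. It was 0.63 within the large subunit and 0.43 within the small subunit, 0.84 among cytosolic ribosomal protein genes, 0.47 among nuclear-encoded respiratory chain and ATP synthase subunits and 0.0036 over all genes. All these genes share the same 9 arrays, so whatever moves an array enters every pair, and the values are a description. Without the 2 arrays that stood apart, the median among members was 0.57 over 7 arrays.

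Single members followed the rest to different degrees. MRPL9, or uL3, tracked the mean of the other 64 members most closely, with a correlation of 0.98 over the 9 arrays, followed by MRPL37 and MRPL20, both at 0.96. RSM10 (-0.10), RSM23 (-0.01), RSM25 (0.07) and MRPS16 (0.09) did not track it, and all 4 belong to the small subunit. RSM7, which rose on all 3 days, had a correlation of 0.15. Among the genes that swung widely, MRPL15, or mL57, read 9.21, 10.37 and 10.74 at day 7 and had the highest SD of that day, 0.801, and MRPL7, or uL5, had the highest of day 19, 0.853.

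The members are short genes. Their median coding length was 714 bases, from 213 to 1887, against 1236 over all genes, and shorter genes tended to be higher in the bottles (Spearman correlation across all genes of -0.11, -0.14 and -0.15 with the change on the 3 days, across genes that are not independent replicates). Among 1211 other genes of 444 to 894 bases, the quartiles of the members' lengths, the median changes were -0.05, -0.11 and -0.01, and 20.97%, 21.5% and 24.0% were called higher and 15.8%, 22.1% and 19.2% lower. Within the members the correlation of change with length was -0.17, 0.14 and -0.18. With each array's trend on length removed, 10, 16 and 7 members were called higher and the member medians were 0.17, 0.21 and -0.05, so that the day 19 median changed sign.

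MRPS12 and RSM19, which encode uS12 and uS19, lie next to each other in the RefSeq annotation of assembly R64. They differed from the reference by 0.41 and 0.54 at day 7, 0.34 and 0.46 at day 15 and 0.23 and 0.40 at day 19, with no call for either. MRPL1 and its neighbour MRX14, which encodes bL34 of the same ribosome, differed by 0.58 and 0.41, 0.93 and 0.75, and 0.58 and 0.51 on the 3 days.

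Mitochondrial ribosomal proteins with other kinds of symbol were read beside the members. Of 14 such genes measured, 3, 5 and 2 rose and 0, 0 and 2 fell. That was 21.4%, 35.7% and 14.3% higher and 0.0%, 0.0% and 14.3% lower. Among all genes, 19.7%, 21.4% and 22.7% were called higher and 17.1%, 23.5% and 20.8% lower. RTC6, or bL36, read 10.13, 10.36 and 10.38 in the reference and from 11.12 to 11.59 in the bottles, and rose by 0.87 ± 0.18, 1.17 ± 0.18 and 1.11 ± 0.18 (adjusted p = 0.00402, 0.000621 and 0.000887). EHD3, a protein of the small subunit that is also known as an enzyme of valine breakdown, rose by 1.11 ± 0.22, 1.12 ± 0.22 and 0.95 ± 0.22 (adjusted p = 0.00324, 0.00242 and 0.00617). YML6, or uL4, rose at day 15 by 1.00 ± 0.32 (adjusted p = 0.0253), as did IMG2 and MHR1, by 0.61 and 0.67, and QRI5 rose at day 7 by 0.53 ± 0.19 (adjusted p = 0.0482). RML2, or uL2, a core protein of the large subunit, read 10.97, 11.02 and 10.80 in the reference and 9.89, 9.90 and 10.26 at day 19, and fell by 0.91 ± 0.21 on the log2 scale (adjusted p = 0.00504). MNP1, or bL12, fell at day 19 by 0.80 ± 0.28 on the log2 scale (adjusted p = 0.0388).

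Of the 12 mitochondrial translation factors, 3 rose at day 7, 3 at day 15 and 2 at day 19, and 0 fell. Among all genes, 19.7%, 21.4% and 22.7% were called higher and 17.1%, 23.5% and 20.8% lower. The median differences of the list were 0.29, 0.27 and -0.08, and 7 of the 12 genes were below 0 at day 19. The difference from all genes was not tested. MEF2, the factor that in mitochondria takes part in ribosome recycling, read 8.28, 7.94 and 8.32 in the reference, 10.93, 11.61 and 11.79 at day 7, 11.31, 11.44 and 11.24 at day 15, and 10.42, 9.69 and 10.50 at day 19. No bottle array was near the reference, and day 19 lay below the other days on all 3 arrays. MEF2 rose by 3.26 ± 0.28 (9.57-fold, adjusted p = 2.19e-05), 3.15 ± 0.28 (8.86-fold, adjusted p = 2.58e-05) and 2.02 ± 0.28 (4.06-fold, adjusted p = 0.000305), more than any member. The others called were GTF1 and PET112, which the list holds although they are subunits of the enzyme that makes mitochondrial glutaminyl-tRNA. GTF1 rose by 0.86, 1.03 and 1.40, each ± 0.25, and PET112 rose by 1.00 and 1.13, each ± 0.24, at days 7 and 15.

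Assembly factors, membrane proteins and tRNA enzymes are given beside the 19.7%, 21.4% and 22.7% of all genes called higher on the 3 days. The shares of all genes called lower were 17.1%, 23.5% and 20.8%. Of 8 genes of mitochondrial ribosome assembly, 0, 2 and 1 rose and 0, 0 and 1 fell: the GTPase genes GEP3, by 0.96 ± 0.30 at day 15 and 1.03 ± 0.30 at day 19, and MTG2, by 1.10 ± 0.40 at day 15, and the helicase gene MSS116, which fell by 1.05 ± 0.36 on the log2 scale at day 19. Of 7 genes that tether the ribosome to the inner membrane or insert its products, 0, 2 and 1 rose and 0, 0 and 1 fell. COX18 and MBA1 rose at day 15 by 1.36 ± 0.37 and 0.74 ± 0.26, MDM38 rose at day 19 by 0.84 ± 0.26, and OXA1, the main insertase, fell at day 19 by 0.77 ± 0.22 on the log2 scale (adjusted p = 0.0159). Of 13 mitochondrial tRNA synthetases, MSK1, for lysine, rose at day 15 by 1.34 ± 0.35 and NAM2, for leucine, fell at day 19 by 0.92 ± 0.25 on the log2 scale. By limma, 0 of 3 genes of mitochondrial transcription, RPO41, MTF1 and ABF2, passed on any day.

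The activators that act on single mitochondrial messages went both ways. Of 17 measured, 1, 5 and 3 rose and 4, 0 and 2 fell. Higher calls were 5.88%, 29.4% and 17.6% of them, beside 19.7%, 21.4% and 22.7% of all genes. Lower calls were 23.5%, 0.0% and 11.8%, beside 17.1%, 23.5% and 20.8% of all genes. PET494 rose on all 3 days by 1.29, 1.46 and 0.80, each ± 0.20, while PET122, which with PET494 and PET54 activates translation of the COX3 message, fell at day 7 by 1.03 ± 0.36 and at day 19 by 1.10 ± 0.36 on the log2 scale, and PET54 fell at day 7 by 1.02 ± 0.35. CBP1, which stabilizes the message of cytochrome b, fell at day 7 by 1.33 ± 0.41 on the log2 scale. MSS51, the activator of the COX1 message, fell by 0.73 ± 0.19 at day 7 and by 1.09 ± 0.19 at day 19. CBS1 rose at days 15 and 19 by 0.94 ± 0.27 and 1.21 ± 0.27, AEP3, CBP6 and CBP3 rose at day 15 by 1.61, 1.15 and 0.55, and SOV1, needed for the VAR1 message, rose at day 19 by 1.38 ± 0.39.

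**Figure D4:**
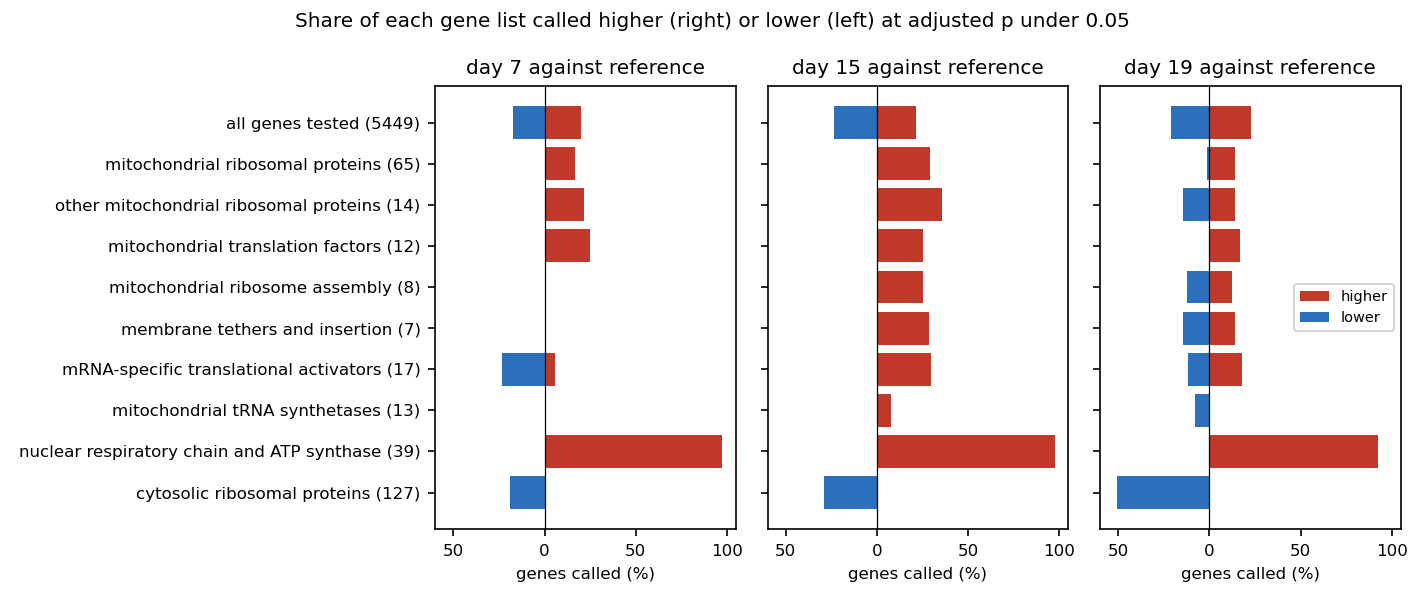
Percent of the genes of each list (number measured in parentheses) called higher (red, to the right) or lower (blue, to the left) than the reference at each day. The bars of the mitochondrial ribosomal proteins, 16.9%, 29.2% and 13.8% higher, are near those of all genes on the right and nearly empty on the left, while nearly all respiratory chain genes are called higher.

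Most products of these ribosomes join nuclear-encoded subunits of the respiratory chain and ATP synthase. A list of nuclear respiratory chain and ATP synthase genes shifted much more. It was not limited to partners of those products, and holds NDI1, SDH2 and CYC7. Of its 39 genes, 38, 38 and 36 rose and 0 fell. That was 97.4%, 97.4% and 92.3% higher, where 19.7%, 21.4% and 22.7% of all genes were. Median changes were 1.44, 1.52 and 1.38 beside 0.28, 0.36 and 0.08 for the mitochondrial ribosomal proteins. Cytosolic ribosomal protein genes differed the other way: of 127, 0 rose and 24, 37 and 64 fell, with medians of -0.40, -0.45 and -0.59. These falls were 18.9%, 29.1% and 50.4% of the list, against 17.1%, 23.5% and 20.8% of all genes, so the day 7 share was near that of all genes. On each of the 9 bottle arrays the median of the mitochondrial ribosomal proteins lay between those of these 2 groups. These comparisons share the reference arrays, and the differences between the lists were not tested.

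**Figure D5:**
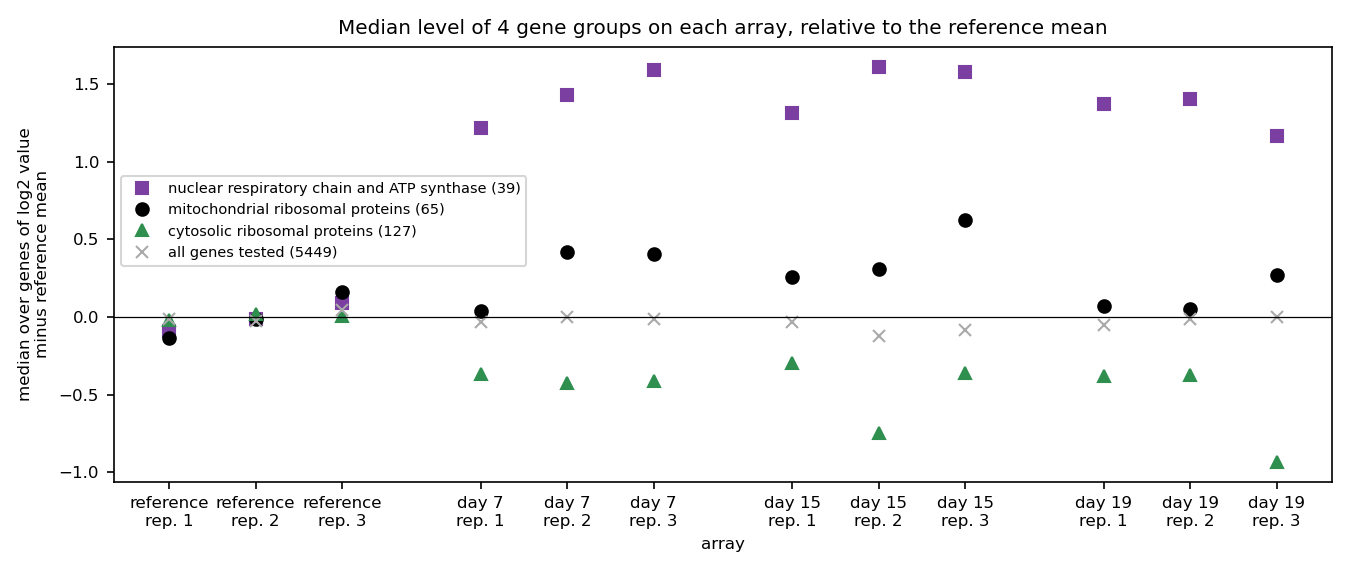
Median over the genes of a group of the log2 value minus the reference mean (y axis) on each array (x axis), for 4 gene groups. On every bottle array the mitochondrial ribosomal proteins, at 0.04 to 0.63, lie below the respiratory chain genes and above the cytosolic ribosomal proteins.

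Among 7 regulators linked to mitochondrial or ribosomal protein genes, 4, 5 and 3 rose and 1, 2 and 1 fell. That was 57.1%, 71.4% and 42.9% higher and 14.3%, 28.6% and 14.3% lower. The shares of all genes were 19.7%, 21.4% and 22.7% higher and 17.1%, 23.5% and 20.8% lower. PUF3 read 5.84, 5.97 and 6.76 in the reference, 9.86, 9.78 and 10.11 at day 7, 8.87, 9.13 and 9.38 at day 15, and 10.02, 9.19 and 8.70 at day 19. Every bottle array was above every reference array by a wide margin, and days 7 and 15 did not overlap. PUF3 rose by 3.72 ± 0.34 (13.2-fold, adjusted p = 3.10e-05), 2.93 ± 0.34 (7.62-fold, adjusted p = 0.000112) and 3.11 ± 0.34 (8.66-fold, adjusted p = 7.46e-05). HAP4, the activating subunit of the complex that switches on respiratory genes, rose by 1.54, 1.58 and 1.57, each ± 0.21 (adjusted p = 0.000318, 0.000253 and 0.000250), and its partner gene HAP5 rose by 1.32, 1.36 and 1.07, each ± 0.22. HAP3 rose at days 7 and 15 by 0.99 and 1.16, each ± 0.27, and HAP2 at day 15 by 0.98 ± 0.34. HAP1, a heme-responsive activator, fell by 1.34 ± 0.28 at day 7 and by 1.44 ± 0.28 at day 15 on the log2 scale, and differed by -0.19 ± 0.28 at day 19. SFP1, a regulator of ribosomal protein genes, fell by 0.95 ± 0.30 at day 15 and by 1.15 ± 0.30 at day 19.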

How the data were processed

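Total RNA, 5 µg per sample, was labelled by 3' in vitro transcription and hybridised to single-colour Affymetrix yeast arrays, per the labels' protocols. The deposited values are log2 probe set summaries that the authors made with RMA, which corrects background, normalizes the arrays to each other and summarises the probes of a set, per the submitters' processing notes, and its version is not given in the sources used here. No value was rescaled. Of 10928 probe sets, 5498 were annotated with 1 S. cerevisiae gene. For the 47 genes with several, none of them a member, the probe set of highest mean was kept. Background was each array's 0.95 quantile of 1746 Schizosaccharomyces pombe probe sets. Coding lengths and gene neighbours come from the RefSeq annotation of assembly R64, and no coordinates are given because the build behind the array is not given in the sources used here.

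Members and gene lists were chosen with earlier results of these data known. The list of cytosolic ribosomal proteins was narrowed to symbols of ribosomal proteins after the files were read, to drop an RNase P gene. The test was limma's (version 3.58.1, R 4.3.3, functions lmFit and eBayes) over all 5449 genes in 1 fit of the 4 groups, with 8 residual and 3.42 prior degrees of freedom and no replicate block. Adjusted p is Benjamini-Hochberg within a comparison, called under 0.05, and SE is limma's moderated standard error. The test was run on simulated data first. Members were named if among the 6 called with the largest change in a direction of a comparison, called the same way in all 3 reference comparisons, called between bottle times, or called in opposite directions. From other lists up to 3 called genes with the largest change per comparison were named, and PUF3. Genes named beyond this rule complete a count or were picked after their values were seen.

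The labels do not say whether a replicate number marks the same assay across groups. Across groups, deviations of same-numbered arrays correlated at -0.28 to 0.41, with 7 of 18 pairs over 0.1. The highest value was between day 7 replicate 1 and day 19 replicate 1, the arrays that stood apart. With 3 arrays per group these correlations can neither show nor exclude pairing, and the main fit treated the arrays as unpaired. The alternatives changed the scaling (median centring, quantile normalization, or centring on the probe sets of S. pombe), the genes (dim genes removed, probe sets averaged, or those with shared sequence removed) or the fit: trend and robust eBayes, only the groups compared, array weights, the replicate number as a block, removal of the trend on coding length, omission of both arrays that stood apart, each array left out, and an adjusted p under 0.01. The precision is set by 3 arrays per group, and no read depth applies. Plots used matplotlib 3.10.9 under Python 3.11.15.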

Additional observations from a re-analysis of the deposited data

How the results depend on the processing

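None of the calls against the reference of MRPL36, MRPL28, MRPL16, MRP49, MRPL4, RSM7, MRPS17, RSM28, RSM18 and RSM22 changed sign under any alternative run. These members were named for their calls on the same arrays, so a kept sign is little evidence. Some calls were lost: RSM28 at day 19 under 10 of 24 alternatives and MRPS17 at day 7 under 6. RSM18 at days 15 and 19 was lost under 4 each, and RSM22 at day 15 under 1. The counts of members called higher at day 7, day 15 and day 19 were 11, 19 and 9. They kept within 1.5 times of these values under all 3 other scalings, with dim genes removed, with probe sets averaged, without probe sets of shared sequence, under trend and robust eBayes, and removal of the length trend (10, 16 and 7). With only the groups compared in the fit, day 7 had 17 higher (24.995% of all genes) and 1 lower, RSM26 (23.6%). With array weights, 31, 53 and 16 were higher, as were 32.8%, 38.8% and 30.9% of all genes. At days 7 and 19, 1 and 2 were lower, as were 31.1% and 28.6% of all genes. Under the same weights, 7 were higher at day 15 than at day 7 and 10 were lower at day 19 than at day 15. The F-test passed 14, and the shares of all genes in these 3 tests were 10.9%, 5.32% and 33.5%. The weights had not converged. Without day 7 replicate 1 and day 19 replicate 1, 20, 24 and 17 were higher, as were 23.5%, 28.0% and 27.5% of all genes. At an adjusted p under 0.01, 6, 10 and 4 were higher, as were 11.6%, 14.1% and 13.8% of all genes. Leaving out each array in turn gave 6 to 14 higher and 0 to 1 lower at day 7, 10 to 22 higher at day 15, and 6 to 14 higher and 1 to 2 lower at day 19. In the same fits, 13.5% to 23.7%, 15.7% to 24.995% and 15.98% to 24.2% of all genes were higher on the 3 days. Lower calls were 9.82% to 21.6% of all genes at day 7 and 13.05% to 22.5% at day 19. With the replicate number as a replicate block, day 19 had 2 lower, MRPL4 and MRPL15 (20.2% of all genes), and 13, 20 and 10 members were higher. In that fit 19.8%, 21.7% and 22.8% of all genes were higher. Of the 18 pairs of same-numbered arrays, 7 correlated best with their own number. The median change of the members ranged over all alternatives from 0.17 to 0.40 for day 7, from 0.21 to 0.58 for day 15 and from -0.05 to 0.20 for day 19. The cause of these shifts was not tested. With 3 arrays per group, the smallest log2 difference called at day 7 was 0.57, and the 43 members with no call are not shown to be unchanged.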
